A study of Mus musculus with 13 samples.

Results

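Genes that encode matricellular proteins were followed, 10 in all: Postn, Cthrc1, Cilp, Comp, Thbs1, Thbs2, Thbs4, Tnc, Spp1 and Sparc. They were taken by gene symbol, and all 10 were found among the 35793 gene entries of the count table. The members had been chosen by their measured levels in sham and infarcted hearts, so those levels are given as a description. Calls against sham from the fit over all genes are counted beside the share of all genes called, with no p and nothing read from them. The infarcted hearts include the IgG libraries, so the p-values printed for members between FG-3149 and IgG are a description too. RNA had been sequenced from mouse cardiac muscle of the left ventricle outside the ischaemic zone, in 13 libraries. All mice were of strain C57BL/6JO1aHsd, 8 to 10 weeks old when treatment began, with the time point labelled 1W+6W, which the labels do not spell out. The sham group (n = 3) had sham surgery and no treatment. The MI+IgG group (n = 5) had permanent ligation of the LAD, the artery that feeds the front of the left ventricle, and an antibody labelled mouse anti IgG at 10 mg/kg. The MI+FG-3149 group (n = 5) had the same ligation and FG-3149, a mouse monoclonal antibody against connective tissue growth factor (CTGF), also at 10 mg/kg. The series speaks of animals, but no label ties a library to an animal, so p-values measure the spread between these libraries.

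Matricellular proteins are secreted into the extracellular matrix without forming its main fibres. They bind collagen, integrins and growth factors, and in doing so change how cells attach, move and lay down matrix. In the adult heart most of them are scarce, and after injury fibroblasts that turn into matrix-producing cells are a known source. CTGF, the target of FG-3149, belongs to the same broad class of proteins.

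Several properties of the libraries bear on these genes. Depth ran from 12025880 to 14999813 estimated counts per library for sham, from 13084735 to 17567238 for MI+IgG and from 10954920 to 12794823 for MI+FG-3149, so both infarcted groups did not overlap in depth. The share of a gene's reads in its first exon had a median, over 5996 genes with a single transcript, of 0.643% to 0.763% in the sham libraries, 0.784% to 1.32% in those with IgG and 1.91% to 2.31% in those with FG-3149. This difference in coverage separated the FG-3149 libraries from all others, and also the sham libraries from both infarcted groups. Its part in the antibody comparison and in the comparisons with sham was not tested. MI+IgG replicate 2, the deepest library, was the highest of its group for all 10 members, whereas 23.0% of all 13434 tested genes were highest there. Results of the antibody comparison are therefore also given without it.

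The 10 genes are expressed in a tissue dominated by heart muscle. A set of 8 cardiomyocyte markers summed to 82210 to 90271 CPM (counts per library total, adjusted by TMM) in sham, 67590 to 74363 under IgG and 71441 to 77725 under FG-3149. A set of 8 general fibroblast markers, among them Pdgfra, Dcn and Tcf21, summed to 2328 to 2479 CPM in sham, 3089 to 4012 under IgG and 3124 to 3600 under FG-3149. Of those 8, 7 were higher with IgG than in sham (edgeR, adjusted p under 0.05), and Pdgfra was not called. With FG-3149, 6 were higher than in sham, and Pdgfra and Ddr2 were not called. Lum alone was lower with FG-3149 than with IgG. On a list of 10 activated-fibroblast markers, 9 were called higher with IgG than in sham and 8 with FG-3149. Cthrc1 alone on it was called lower with FG-3149 than with IgG. Over all tested genes, 17.8% were called higher with IgG than in sham and 15.6% with FG-3149. Between the antibodies, 0.156% were called lower with FG-3149. The activated-fibroblast list shares Postn, Cthrc1, Thbs4, Cilp and Comp with the members, which were chosen by these levels. The others called with IgG were Col1a1, Ltbp2, Meox1 and Ddah1, so bulk levels do not assign the 10 genes to a cell type. Macrophage markers, relevant because macrophages can make Spp1 and Thbs1, summed to 226 to 229 CPM in sham, 297 to 489 under IgG and 332 to 502 under FG-3149. Markers of cartilage and bone, where Comp and Cilp are best known, summed to 4.06 to 4.84 CPM in sham, 43.6 to 118 under IgG and 29.5 to 78.2 under FG-3149. Of these 10 cartilage and bone genes only 4 were expressed enough to test, and Sox9, Chad and Fmod were higher in both infarcted groups. No marker on these lists was at 0 in all libraries. The part of these marker levels in the results below was not tested, and in bulk tissue fewer cells of a type and less RNA per cell cannot be told apart.

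The stretches of DNA just before the start of 3 members are printed because their levels behaved differently. Postn came next to Sparc in abundance, Thbs4 differed in where along the gene its reads lay, and the 3 groups overlapped for Thbs2. Each run is the 250 bases before the RefSeq start (GRCm38.p6, the assembly behind mm10), 5′ to 3′ on the gene's own strand. Capitals mark matches on either strand to TATAAA, the TATA box core, TGANTCA, the AP-1 site, CATTCC, the TEAD site, and CAGACA, a SMAD site, whose reverse complement reads TGTCTG.
Postn (chr3:54360857-54361106, plus strand): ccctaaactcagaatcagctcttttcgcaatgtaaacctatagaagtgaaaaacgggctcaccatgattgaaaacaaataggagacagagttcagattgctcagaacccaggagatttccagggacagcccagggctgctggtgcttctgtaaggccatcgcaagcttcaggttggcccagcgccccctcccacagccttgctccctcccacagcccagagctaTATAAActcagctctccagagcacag
Thbs4 (chr13:92794819-92795068, minus strand): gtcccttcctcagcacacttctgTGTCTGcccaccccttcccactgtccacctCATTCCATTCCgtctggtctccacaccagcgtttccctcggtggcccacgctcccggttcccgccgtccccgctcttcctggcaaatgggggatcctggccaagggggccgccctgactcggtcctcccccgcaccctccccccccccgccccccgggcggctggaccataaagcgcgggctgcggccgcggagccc
Thbs2 (chr17:14694263-14694512, minus strand): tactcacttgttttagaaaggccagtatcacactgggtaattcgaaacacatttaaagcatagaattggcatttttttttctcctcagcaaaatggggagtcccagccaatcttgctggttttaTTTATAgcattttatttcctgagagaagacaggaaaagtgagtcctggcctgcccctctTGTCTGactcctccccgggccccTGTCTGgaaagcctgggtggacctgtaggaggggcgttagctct
Postn held TATAAA from -26 to -21 relative to its start. Thbs4 held 2 overlapping copies of CATTCC between -197 and -187 and a CAGACA on the other strand. In Thbs2 there was a TATAAA match on the other strand and 2 of CAGACA. Upstream sequences were found for 7 of the 10 members (not for Cthrc1, Comp and Thbs1). TATAAA was in 4 of the 7 and in 12.4% of 32851 promoters of the same length, CAGACA was in 4 of the 7 and in 17.1%, CATTCC in 1 of the 7 and in 12.6%, and TGANTCA in 0 of the 7 and in 6.75%. Besides Postn, TATAAA began farther from the start, at -211 in Spp1, at -126 in Tnc and, on the other strand, at -126 in Thbs2. A match describes the letters in this window and is not evidence of a bound factor.

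Postn also carries optional exons near its 3′ end, shown here because their share of reads did not overlap between sham and infarcted hearts, for which they were singled out after their values were seen. Both were taken from GENCODE M21 transcripts on GRCm38 and lie within the coding sequence. Their lengths, 81 and 84 bases, are multiples of 3, so including them keeps the reading frame.
Postn exon of 81 bases (chr3:54380412-54380492, plus strand): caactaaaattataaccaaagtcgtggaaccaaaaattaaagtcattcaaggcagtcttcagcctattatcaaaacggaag
Postn exon of 84 bases (chr3:54385671-54385754, plus strand): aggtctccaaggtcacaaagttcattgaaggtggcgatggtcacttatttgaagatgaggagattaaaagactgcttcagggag

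In infarcted hearts 9 of the 10 genes were higher than in sham, and Thbs2 was not. In the edgeR fit over all 13 libraries, 17.8% of all tested genes were called higher with IgG than in sham. With FG-3149 the same 9 genes were called higher than in sham, where the background was 15.6% of genes. No member was called lower in either comparison, against 15.9% and 13.9% of genes. For these 9, every infarcted library of both groups lay above every sham library, while 18.2% of tested genes did so for IgG and 16.6% for FG-3149. Because these comparisons were in view when the genes were picked, nothing is read from the counts. The median log2 difference of the 10 from sham was 3.79 with IgG and 2.89 with FG-3149, and over all tested genes it was -0.0010 and -0.0015. Both medians share the sham libraries.

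**Figure D1:**
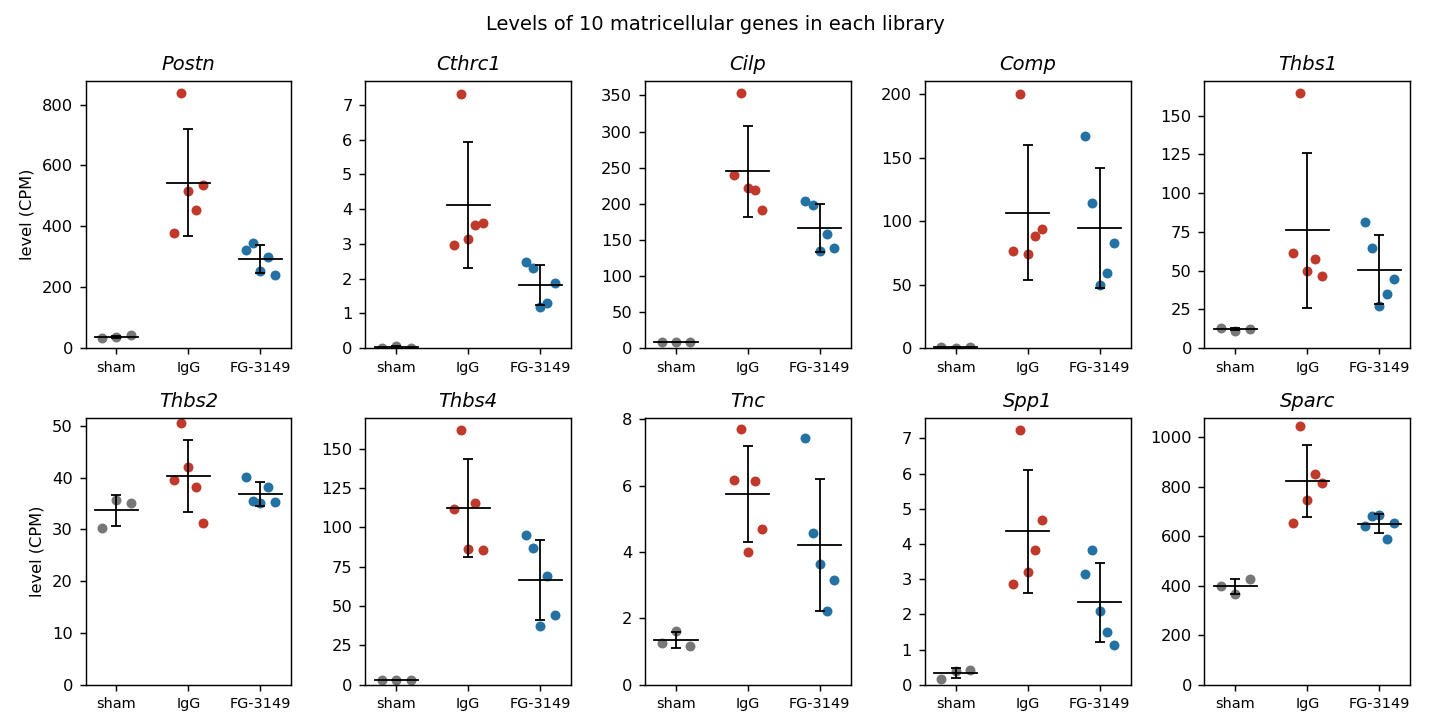
Level of each gene in CPM (vertical axis, from 0) for every library, by group: sham (n = 3), MI+IgG (n = 5), MI+FG-3149 (n = 5). Points are libraries, horizontal lines are group means and bars are 1 SD; the highest IgG point in each panel is replicate 2, for example at 837 for Postn and 201 for Comp.

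Postn (Entrez gene 50706, mm10 chr3:54361107-54391041, plus strand, 23 exons over 3 RefSeq transcripts) encodes periostin, a collagen-binding protein that is widely used to mark activated fibroblasts. Its level was 33.6, 36.0 and 41.7 CPM in sham. With IgG it was 376, 837, 518, 452 and 535 CPM in replicates 1 to 5, and with FG-3149 324, 345, 253, 298 and 239.6. The 3 groups did not overlap: the lowest IgG library (376) was above the highest FG-3149 library (345). Against sham the fitted fold was 14.7 with IgG (log2 3.87, SE 0.28) and 7.87 with FG-3149 (log2 2.98, SE 0.27). FG-3149 against IgG gave a log2 fold change of -0.90 (SE 0.20), with adjusted p = 0.0688 in edgeR's quasi-likelihood test, short of the 0.05 threshold. Without MI+IgG replicate 2 this was -0.68, with adjusted p = 0.0515. DESeq2 called Postn lower, with adjusted p = 0.0028, and so did the edgeR fit without MI+IgG replicate 1, with adjusted p = 0.0274. Over all alternatives the adjusted p ranged from 0.0028 to 0.164.

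Cthrc1 (Entrez gene 68588, chr15:39076932-39087119, plus strand, 4 exons) encodes a secreted protein that fibroblasts make in scarring tissue. Its 3 sham libraries held 0, 1 and 0 reads, and it passed the filter on low counts only through the infarcted groups. The IgG libraries held 2.98, 7.32, 3.15, 3.54 and 3.61 CPM, and the FG-3149 libraries 2.48, 2.29, 1.18, 1.30 and 1.87. The lowest IgG library lay above the highest FG-3149 library, and MI+IgG replicate 2 stood far above the other 4 of its group. All IgG libraries together held 333 reads against 1 in sham. Scaled by the TMM-adjusted library totals, the ratio was 166, with an exact 95% counting interval of 29.6 to 6584. With FG-3149 there were 109 reads, a ratio of 73.0 with an interval of 12.8 to 2911. The intervals cover counting error only. Cthrc1 was the only member called in the antibody comparison: it fell by 1.17 on the log2 scale (SE 0.28, adjusted p = 0.0491, edgeR), to 44.5% of its IgG level. For reference, 0.156% of tested genes were called lower with FG-3149 and 0.916% higher. The IgG libraries were among those whose levels chose the members, so this call is a description. The call was fragile, since it was lost in 15 of 22 alternatives, over which the adjusted p ran from 0.0112 to 0.131. Without MI+IgG replicate 2 the log2 fold change was -0.84 and the adjusted p = 0.131, and leaving out any 1 sham library also ended the call.

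The thrombospondins are large glycoproteins that bind calcium, collagen and cell-surface receptors. Thbs1 and Thbs2 form trimers and are known to inhibit new vessel growth, and Thbs1 can activate latent TGF-beta. Thbs4 and Comp, also called thrombospondin 5, form pentamers and are found in tendon, cartilage and muscle matrix. These 4 genes differed in how far infarcted hearts stood from sham.

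Comp (Entrez gene 12845, chr8:70373548-70382066, plus strand, 19 exons) was almost absent in sham, with 0.795, 0.203 and 0.829 CPM, which is 10, 3 and 10 reads. In the IgG libraries it reached 76.7, 201, 73.9, 88.4 and 94.0 CPM, and in the FG-3149 libraries 167, 115, 50.0, 58.9 and 83.2. The infarcted groups overlapped widely, and the spread within FG-3149 (SD 47.6, n = 5) was close to that within IgG (SD 53.1, n = 5). Its fitted log2 difference from sham was 7.49 (SE 0.89) with IgG and 7.32 (SE 0.89) with FG-3149. The antibody comparison gave -0.17 (SE 0.38, adjusted p = 0.891, edgeR), and without MI+IgG replicate 2 the sign turned, to 0.19 (adjusted p = 0.882).

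Thbs1 (Entrez gene 21825, chr2:118111922-118127133, plus strand, 22 exons) had 12.7, 11.3 and 12.6 CPM in sham. The IgG libraries gave 61.2, 165, 49.9, 57.6 and 46.7 CPM and the FG-3149 libraries 81.2, 64.9, 27.0, 34.7 and 44.4. The IgG mean of 76.0 ± 49.9 CPM (SD, n = 5) includes MI+IgG replicate 2 at 165. Its fold over sham was 6.26 with IgG and 4.15 with FG-3149, and the call against sham for FG-3149 was lost when any 1 sham library was left out and in limma voom. FG-3149 against IgG gave a log2 fold change of -0.59 (SE 0.41, adjusted p = 0.580, edgeR), which shrank to -0.09 without MI+IgG replicate 2.

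Thbs2 (Entrez gene 21826, chr17:14665500-14694262, minus strand, 22 exons) had 30.2, 35.8 and 35.1 CPM in sham. Its IgG libraries held 39.6, 50.6, 42.1, 38.2 and 31.3 CPM and its FG-3149 libraries 40.2, 35.6, 35.0, 38.2 and 35.3. All 3 groups overlapped. The fold over sham was 1.20 with IgG and 1.09 with FG-3149, and the antibody comparison gave -0.14 (SE 0.10, adjusted p = 0.579, edgeR). Thbs2 was called higher with IgG than in sham when MI+IgG replicate 5, its lowest infarcted library, was left out.

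Thbs4 (Entrez gene 21828, chr13:92751586-92794818, minus strand, 22 exons) had 3.10, 3.32 and 3.07 CPM in sham. With IgG it had 112, 162, 86.4, 116 and 85.6 CPM and with FG-3149 94.9, 86.8, 37.1, 69.0 and 44.6. The groups overlapped between 85.6 and 94.9. The fold over sham was 35.3 with IgG (log2 5.14, SE 0.47) and 21.0 with FG-3149 (log2 4.39, SE 0.48). FG-3149 against IgG gave -0.75 (SE 0.27, adjusted p = 0.253, edgeR).

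The reads of Thbs4 also lay elsewhere along the gene in sham. Its last 3 exons held 71.4%, 87.8% and 70.8% of its reads in the sham libraries, pooled 77.6% (97 of 125 reads, 95% Wilson interval 69.5% to 84.0%, for counting error only). In infarcted hearts the same exons held 25.4% to 31.0% of Thbs4 reads under IgG and 26.4% to 31.5% under FG-3149. These 3 exons were singled out after their values were seen, so the difference is a description. Sham Thbs4 thus rested on 37 to 49 reads per library, most of them near the 3′ end, and no Thbs4 exon was called in the fit of exon use. Among the other members with over 100 sham reads the share in the last 3 exons moved little. For example, it went from 74.9% in sham to 73.6% with IgG for Sparc and from 45.2% to 44.3% for Thbs1. Of those with fewer, Comp (23 sham reads) went from 39.0% to 23.7% with IgG and 22.5% with FG-3149. In the same order Spp1 (13 sham reads) held 90.1%, 84.6% and 86.8%, and Tnc (54 sham reads) 29.6%, 26.6% and 29.8%. Cthrc1 had 1 sham read. Over the 5996 genes with a single transcript the median share of reads in the last exon was 45.9% to 46.8% in sham and 42.8% to 44.8% with IgG.

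Cilp (Entrez gene 214425, chr9:65265180-65280605, plus strand, 10 exons) encodes a cartilage protein that binds TGF-beta. It was at 8.19 to 8.94 CPM in sham, 192 to 353 under IgG and 134 to 204 under FG-3149. Its mean was 8.55 ± 0.377 CPM in sham (SD, n = 3), 245 ± 62.7 with IgG (SD, n = 5) and 166 ± 33.0 with FG-3149 (SD, n = 5). The fold over sham was 28.6 with IgG and 19.4 with FG-3149. In the antibody comparison Cilp gave a log2 fold change of -0.56 (SE 0.17, adjusted p = 0.182, edgeR), with both groups overlapping between 192 and 204 CPM.

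Tnc (Entrez gene 21923, chr4:63959785-64047015, minus strand, 26 exons) encodes tenascin C, a protein that loosens cell attachment and appears at wound edges. It was at 1.16 to 1.63 CPM in sham, 4.01 to 7.71 under IgG and 2.23 to 7.44 under FG-3149. The fold over sham was 4.20 with IgG and 3.09 with FG-3149, and FG-3149 against IgG gave -0.44 (SE 0.25, adjusted p = 0.473, edgeR). Per length it was the scarcest of the 10 in infarcted hearts. Another 2 gene entries overlap Tnc, 1 of them on the opposite strand, and both were listed at 0.

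Spp1 (Entrez gene 20750, chr5:104435111-104441053, plus strand, 10 exons over 5 RefSeq transcripts) encodes osteopontin, an integrin and CD44 ligand made by macrophages, fibroblasts and bone cells. Sham libraries had 0.159, 0.406 and 0.414 CPM, which is 2, 6 and 5 reads. The IgG libraries had 2.87, 7.24, 3.21, 3.83 and 4.69 CPM and the FG-3149 libraries 3.16, 3.82, 2.09, 1.49 and 1.14. Of the FG-3149 libraries, 3 lay below every IgG library and the other 2 within the IgG range. Its log2 difference from sham was 3.70 (SE 0.52) with IgG and 2.81 (SE 0.56) with FG-3149, and the antibody comparison gave -0.89 (SE 0.31, adjusted p = 0.211, edgeR).

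Sparc (Entrez gene 20692, chr11:55394501-55420080, minus strand, 10 exons) encodes osteonectin, which binds collagen and aids its assembly into fibres. It was the one member already abundant in sham, at 401, 367 and 426 CPM. The IgG libraries held 655, 1046, 747, 851 and 817 CPM and the FG-3149 libraries 643, 683, 686, 591 and 654. Of the 5 IgG libraries, 4 lay above every FG-3149 library. The fold over sham was 2.07 with IgG and 1.64 with FG-3149. FG-3149 against IgG gave -0.34 (SE 0.10, adjusted p = 0.126, edgeR). Sparc was called lower by DESeq2, with adjusted p = 0.0297, and in edgeR without MI+IgG replicate 1, with adjusted p = 0.0162. Without MI+IgG replicate 2 it was not called (log2 -0.23, adjusted p = 0.186, edgeR). Over all alternatives the adjusted p ranged from 0.0162 to 0.242.

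All 10 members had a log2 fold change below 0 in the antibody comparison, against 54.1% of all tested genes. Their median was -0.58 and that of all tested genes -0.012. An unadjusted p under 0.05 was found for 6 members and for 1849 of 13434 genes, and 1 member passed after adjustment, against 1.07% of genes in either direction. Postn and Cthrc1 were the only members whose FG-3149 libraries all lay below all IgG libraries, which held for 1.24% of tested genes. The members share libraries and vary together within a group, so the 10 signs are not independent. The IgG libraries were also among those whose levels chose the members, so nothing is read from these counts. Without MI+IgG replicate 2, 9 of the 10 stayed below 0, each with a smaller log2 fold change in size than over all libraries. Beside the values given above, Spp1 was then at -0.62, Thbs4 at -0.58 and Cilp at -0.39. Tnc was at -0.31 and Thbs2 at -0.04, and none of these was called. Ctgf, the target of the antibody, was at 37.8 to 46.9 CPM in sham, 233 to 439 under IgG and 183 to 325 under FG-3149, with a log2 fold change of -0.39 between the antibodies (SE 0.19, adjusted p = 0.394, edgeR).

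**Figure D2:**
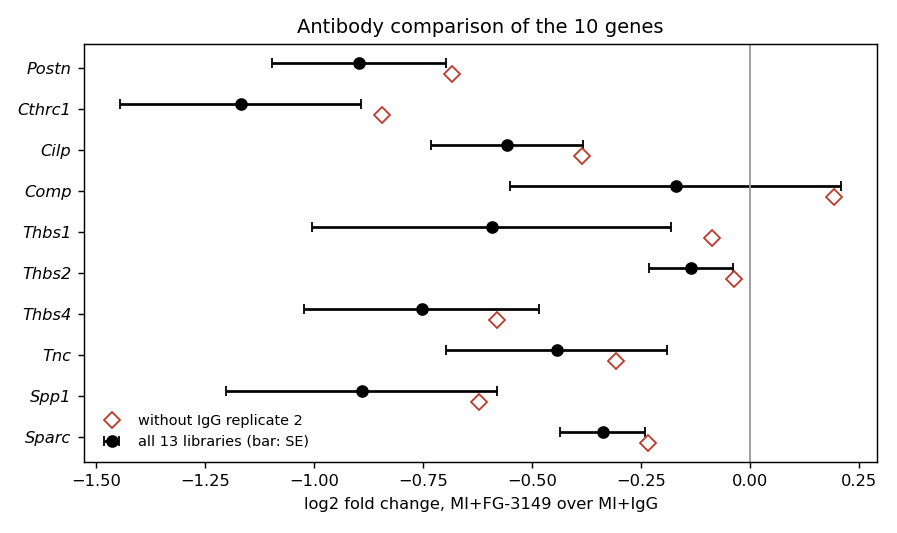
Log2 fold change of FG-3149 over IgG (horizontal axis) for each gene. Black points with SE bars use all 13 libraries and run from -1.17 for Cthrc1 to -0.14 for Thbs2; open diamonds leave out MI+IgG replicate 2, and there Comp lies at 0.19.

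Levels were compared between genes on the deposited RPKM scale, which divides by transcript length. Sparc was first and Postn second in all 3 groups, and in each group their ranges stood apart from each other and from the gene that came next. Sparc RPKM was 172.8 ± 14.6 in sham (SD, n = 3), 361.7 ± 64.8 with IgG (SD, n = 5) and 280.6 ± 18.8 with FG-3149 (SD, n = 5). Postn RPKM was 11.7 ± 1.33, 171 ± 54.9 and 90.3 ± 15.7 in the same order. In sham the order then ran Thbs2, Thbs1, Cilp, Thbs4, Comp, Spp1, Tnc and Cthrc1, in which Thbs1 and Cilp, Comp and Spp1, and Spp1 and Tnc overlapped. With IgG it ran Cilp, Comp, Thbs4, Thbs1, Thbs2, Cthrc1, Spp1 and Tnc, in which only Spp1 and Tnc had ranges that did not overlap. With FG-3149 the order was the same except that Spp1 stood before Cthrc1, and only Thbs2 and Spp1 were apart. Counted library by library with IgG, each gene exceeded the next in all 5, except Comp over Thbs4 and Cthrc1 over Spp1 (4 of 5 each). With FG-3149 the exceptions were Cilp over Comp, Thbs1 over Thbs2 and Spp1 over Cthrc1 (3 of 5 each). Thbs2 thus went from rank 3 to rank 7 while its own RPKM was 5.67 ± 0.465 in sham and 6.89 ± 1.21 with IgG.

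**Figure D3:**
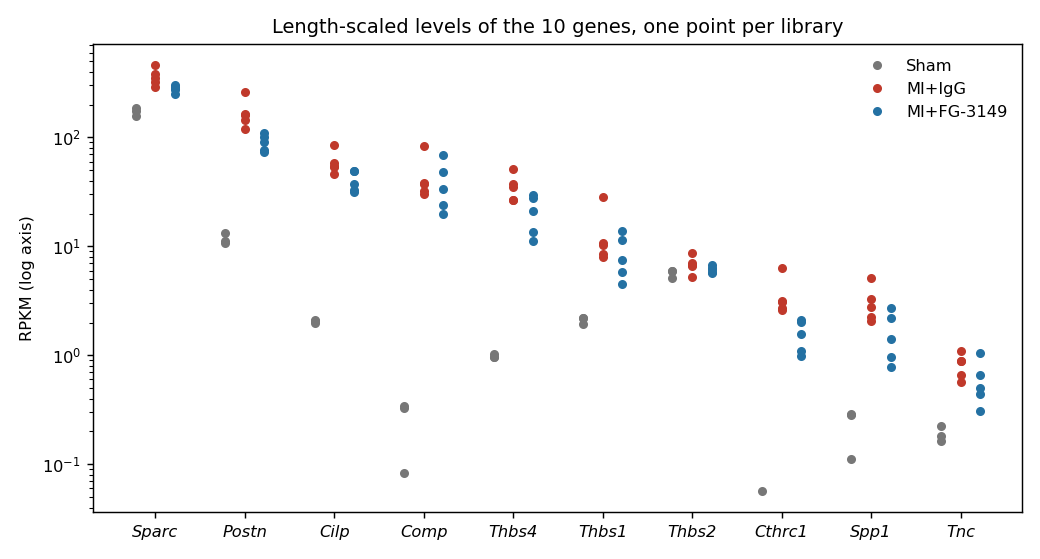
RPKM of each gene on a log axis, genes ordered by their mean with IgG, with 1 point per library coloured by group. Sparc lies highest throughout; the 2 sham libraries with 0 reads of Cthrc1 cannot be drawn on a log axis.

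The make-up of the set changed with this order. Sparc was 88.1% ± 0.881 of the summed RPKM of the 10 genes in sham (SD, n = 3), 52.2% ± 3.73 with IgG and 57.9% ± 6.07 with FG-3149 (SD, n = 5 each). Postn was 5.96% ± 0.482 in sham, 24.2% ± 2.58 with IgG and 18.4% ± 1.75 with FG-3149. The summed RPKM was 196 ± 15.6 in sham, 699.7 ± 171 with IgG and 489 ± 62.5 with FG-3149.

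Reads in the optional exons of Postn printed above did not overlap between sham and infarcted hearts. The exon of 81 bases held 0%, 0.0890% and 0.335% of Postn reads in the sham libraries, 0.907% to 1.09% under IgG and 0.979% to 1.14% under FG-3149. For the exon of 84 bases the shares were 0.675%, 0.134% and 0.594% in sham, 1.82% to 2.03% under IgG and 1.04% to 2.19% under FG-3149. Every infarcted library lay above every sham library for both exons, as it did for 2.65% of 95110 exons with a share in every library and for 21 of 126 such member exons, and both infarcted groups overlapped. Sham rested on few reads: 2 of 1458 for the first exon (0.137%, 95% Wilson interval 0.0376% to 0.499%) and 7 of 1458 for the second (0.480%, 0.233% to 0.988%). Pooled IgG reads gave 1.02% (0.932% to 1.12%) and 1.93% (1.81% to 2.07%), and FG-3149 reads 1.04% (0.897% to 1.20%) and 1.74% (1.56% to 1.95%). These intervals cover counting error only and not the spread between libraries. Neither exon was called in the edgeR fit of exon use, with adjusted p = 0.696 and 0.587 for IgG against sham and 0.331 and 0.336 for FG-3149 against sham. On the deposited transcript shares, NM_001198766, the RefSeq transcript with neither exon, made up 40.2% to 56.3% of Postn in sham, 2.58% to 3.40% under IgG and 2.51% to 6.55% under FG-3149. Those shares are estimates from the same reads and are not a further measurement.

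**Figure D4:**
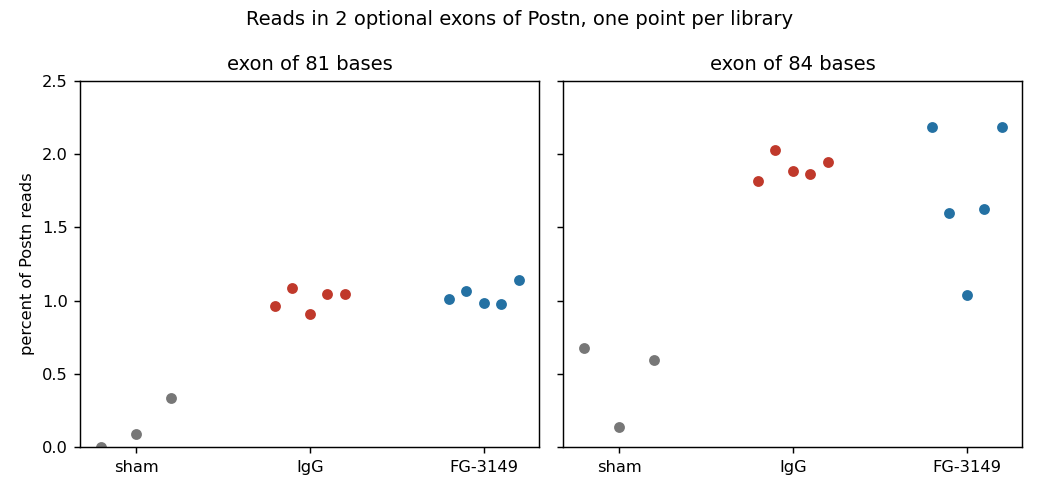
Share of Postn reads (percent, vertical axis) that fell in the exon of 81 bases (left) and the exon of 84 bases (right), with 1 point per library in each group. The highest sham library is at 0.335% on the left and 0.675% on the right, below all infarcted libraries.

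Use of all exons of the 10 genes was tested in that fit, which compares each exon with the rest of its gene. Of 129 member exons tested, 0 were called between IgG and sham with edgeR, where 0.487% of 95131 exons were called, and 5 had an unadjusted p under 0.05, as did 6.88% of exons. Those 5 were the optional exons of Postn and the last 3 exons of Thbs4. Between FG-3149 and sham 1 was called, where 6.68% of exons were, and between FG-3149 and IgG also 1, where 4.2% were. Both calls were the first exon of Sparc (chr11:55419788-55420080, 5′ end of the gene), with 0.481% ± 0.210 of Sparc reads with IgG and 1.45% ± 0.159 with FG-3149 (SD, n = 5 each). Between the antibodies the log2 change in its use was 1.10, with adjusted p = 2.84e-11 (edgeR diffSpliceDGE). Of all exons called higher with FG-3149 in genes with a single transcript, 73.9% were first exons, against 5.38% of exons tested there. The part of this coverage difference in the Sparc call was not tested.

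Within the infarcted groups the members' spread between libraries was wide for most of them, with Sparc (5.90%) and Thbs2 (6.11%) under FG-3149 below the median of all genes. The median coefficient of variation was 29.9% with IgG and 34.9% with FG-3149 over the members, and 9.26% and 9.95% over all tested genes. It was lowest for Thbs2 with IgG (17.3%) and for Sparc with FG-3149 (5.90%), and highest for Thbs1 with IgG (65.6%) and Comp with FG-3149 (50.2%). In FG-3149, replicate 1 was highest for 7 members and replicate 3 lowest for 6. After group means were subtracted, the 45 pairs of members were correlated over the 10 infarcted libraries. Their median Pearson r was 0.70 and median Spearman rho 0.58, and the median r without MI+IgG replicate 2 was 0.52. These libraries differ in depth and marker levels, whose part in r was not tested. Cthrc1 and Comp were the closest pair (r = 0.97) and Thbs4 and Sparc the loosest (r = 0.24). These correlations are descriptions with no test.

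**Figure D5:**
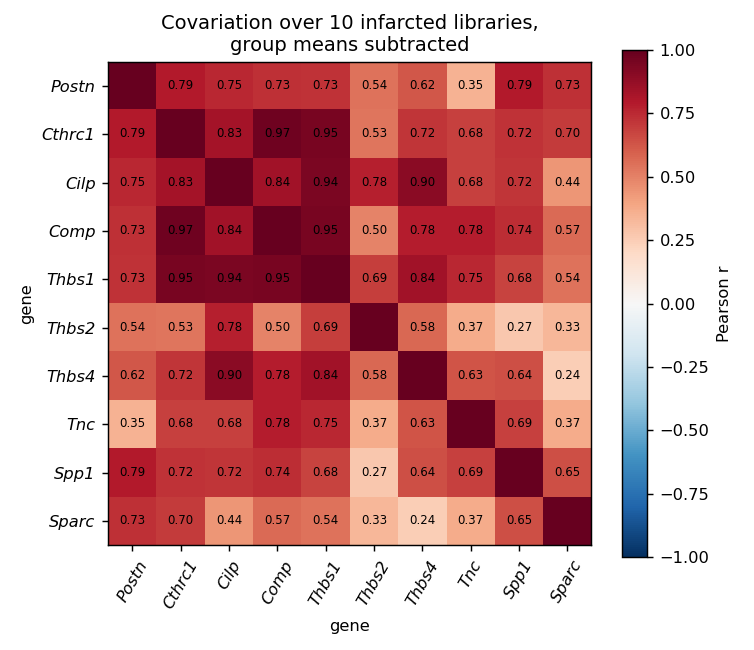
Pearson r of log2 CPM between each pair of the 10 genes over the 10 infarcted libraries, after subtracting each group's mean. Colour and number give r, from 0.24 for Thbs4 with Sparc to 0.97 for Cthrc1 with Comp.

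The tested genes whose levels followed a member most closely over the same 10 libraries were listed for 4 of them. Ranks in all 4 lists moved without MI+IgG replicate 2, farthest for Postn and Sparc. For Comp they were 1700007J10Rik (r = 0.98), Mfap4 (0.97), the member Cthrc1 (0.97), Ltbp2 (0.97) and Col8a2 (0.96). Col8a2 went from rank 5 to 19 without MI+IgG replicate 2. Mfap4 and Ltbp2 encode proteins of elastic microfibrils. For Postn they were Fgd3 (r = 0.96), Serpina3n (0.94), Mfap5 (0.94), Olfml3 (0.93) and Srf (0.93). Without MI+IgG replicate 2, Serpina3n went from rank 2 to 14, Mfap5 from 3 to 39 (r = 0.86) and Olfml3 from 4 to 81 (r = 0.82). Spp1 was followed by Rassf5 (r = 0.97), Scn10a (0.96), Rbms3 (0.95), 1700128F08Rik (0.94) and Mmp19 (0.94). Without that library 1700128F08Rik went from rank 4 to 18 and Mmp19 from 5 to 16. Sparc was followed by Ptgis (r = 0.96), Sh3bp2 (0.95), Emp1 (0.94), Chst12 (0.94) and Tns3 (0.93). Without that library Sh3bp2 went from rank 2 to 13, Emp1 from 3 to 67, Chst12 from 4 to 65 and Tns3 from 5 to 107.

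Relatives of the 10 genes, their receptors and the matrix they bind were read from 3 lists. The lists were chosen with earlier results of these data known, and the genes printed with a p were picked among those with the smallest. Counts and p-values in all 3 lists are therefore a description. Of 9 tested relatives, 8 were called higher with IgG than in sham and 7 with FG-3149, and 0 lower. Of all tested genes, 17.8% were called higher and 15.9% lower with IgG, 15.6% and 13.9% with FG-3149, and 1.07% in either direction between FG-3149 and IgG, which is also the background for the other 2 lists. Thbs3, a pentameric thrombospondin, rose from 5.98 ± 0.889 CPM in sham (SD, n = 3) to 16.4 ± 2.59 with IgG (SD, n = 5, adjusted p = 1.46e-06, edgeR). Fstl1, a relative of Sparc, rose from 91.3 ± 13.6 to 324 ± 72.4 CPM (adjusted p = 1.66e-05, edgeR). Cilp2, the closest relative of Cilp, was at 0 to 0.166 CPM in sham and 2.53 to 4.22 with IgG, with no overlap. Between FG-3149 and IgG, edgeR, DESeq2 and limma voom each called 0 of the 9, and 3 had an unadjusted p under 0.05 in edgeR (Fstl1, Sparcl1 and Thbs3).

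Of 19 tested receptors and binding partners on the cell surface, 11 were called higher and 2 lower with IgG than in sham, and 8 and 1 with FG-3149. Itga9, the integrin subunit that binds tenascin C and osteopontin, rose from 88.7 ± 7.45 CPM in sham (SD, n = 3) to 146 ± 8.70 with IgG (SD, n = 5, adjusted p = 8.71e-07, edgeR). Sdc1, a heparan sulphate receptor, rose from 6.12 ± 0.633 to 12.7 ± 2.70 CPM (adjusted p = 5.38e-05, edgeR). Cd36, a fatty acid transporter that also binds thrombospondins, fell from 2686 ± 95.8 to 1904 ± 237 CPM (adjusted p = 6.27e-05, edgeR), and the FG-3149 libraries held 1880 to 1942. Between FG-3149 and IgG the same 3 tools called 0 of the 19, and Tlr4 alone had an unadjusted p under 0.05 in edgeR.

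Of 21 tested partners in the matrix, 14 were called higher and 1, Adamts7, lower with IgG than in sham, and 11 and 1 with FG-3149. Tgfb3, a TGF-beta ligand, rose from 15.9 ± 0.732 CPM in sham (SD, n = 3) to 52.1 ± 11.4 with IgG (SD, n = 5, adjusted p = 2.88e-05, edgeR), and Tgfb2 from 9.15 ± 0.561 to 26.3 ± 4.90 (adjusted p = 8.79e-05, edgeR). Mmp2, a gelatinase, rose from 63.6 ± 1.61 to 134 ± 22.9 CPM (adjusted p = 3.95e-06, edgeR). Between FG-3149 and IgG the same 3 tools called 0 of the 21, and 4 had an unadjusted p under 0.05 in edgeR, Tgfbr1, Tgfbr2, Tgfb3 and Mmp2. Tgfbr1, a TGF-beta receptor, was at 37.6 ± 2.58 CPM with IgG and 30.8 ± 4.52 with FG-3149 (SD, n = 5 each, adjusted p = 0.117, edgeR).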

How the data were processed

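RNA of 13 libraries (sham n = 3, MI+IgG n = 5, MI+FG-3149 n = 5) was sequenced with single reads of 75 bases from a stranded mRNA kit on 1 flow cell, per the labels' protocols, with 500 ng of RNA per library. For genes and exons the deposited values are estimated counts, not normalized, and for transcripts the authors gave RPKM. The build was mm10, per the submitters' processing notes. Which aligner and counter were used, with which strand setting and which handling of multiply matching reads, is not given in the sources used here. Of the gene values, 79.4% lay within 0.01 of a whole number.

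Estimated counts were rounded. Repeated symbols (379 entries, 0.0% of reads) were dropped. Genes passing filterByExpr (13434) were scaled by TMM and fitted over all 13 libraries with robust quasi-likelihood tests in edgeR 4.0.16 (R 4.3.3) with Benjamini-Hochberg adjustment and a threshold of 0.05. Exon use was tested with diffSpliceDGE on exons with at least 10 counts in 3 libraries. RPKM served for levels between genes. Alternatives were DESeq2 1.42.0, limma 3.58.1 (voom, and log2 RPKM plus 1 or 0.1), other filters and samples, and each library left out. In simulated data for FG-3149 against IgG over 12280 genes, 68.3% of 1.5-fold and 98.6% of 2-fold changes were recovered, and in 29752 exons 97.0% of 3-fold changes in use. Every simulated gene or exon had the same spread between libraries beyond counting error, and those with few reads were left out. The members' median coefficient of variation was 29.9% with IgG and 34.9% with FG-3149, against 9.26% and 9.95% over all tested genes. These rates were therefore not shown to hold for the members.

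The members and lists were chosen with earlier results of these data known. Named genes were the members, Ctgf, and, out of those allowed by rule, some of the up to 4 with the smallest p per list and comparison and the 5 with the highest r for Postn, Comp, Spp1 and Sparc.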

Additional observations from a re-analysis of the deposited data

Results flagged for a closer look

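In MI+IgG replicate 2 the level stood apart from the other 4 libraries of its group, by Dixon's 95% criterion, for Cthrc1 (7.32 CPM), Comp (201 CPM) and Thbs1 (165 CPM). These were 3 of 20 groups tested, and chance flags about 1 in 20. The 3 values come from 1 library, which was also the deepest, at 17567238 estimated counts. MI+IgG replicate 3 held 17492764 and was the highest of its group for 0 members. The part of depth was not tested.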

How the results depend on the processing

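Against sham, the number of members called was 9 to 10 for MI+IgG and 8 to 9 for MI+FG-3149 over all alternatives, and every one of the 10 kept its direction in both. Between FG-3149 and IgG, 144 genes and 1 member were called. DESeq2 called 281 genes and 3 members (Postn, Cthrc1, Sparc), limma on log2(RPKM + 0.1) 91 genes, limma on log2(RPKM + 1) with no filter 71 and the fit of the 2 groups alone 83. These 3, voom and limma on log2(RPKM + 1) called 0 members. With 1 library left out, 68 to 271 genes and 0 to 3 members were called, and exon use gave 125 to 615 exons for IgG against sham, 4413 to 6492 for FG-3149 against sham and 3435 to 4127 between the antibodies (member exons 0, 1 to 5 and 1). The 3-member count came without MI+IgG replicate 1 (271 genes), and the lowest gene count without MI+IgG replicate 2 (68 genes). Without that library Comp reversed (log2 0.19, within -0.47 to 0.19 over all left-out libraries), and the median r fell from 0.70 to 0.52, within 0.52 to 0.74 over all left-out libraries. With at least 30 counts per exon, 4169 exons were called for FG-3149 against sham and 2361 between the antibodies. The cause of these differences was not tested.

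Between the antibody groups, same-numbered replicates deviated together weakly for replicates 1 and 2 (r of 0.18 and 0.13). For replicates 3 to 5 r was -0.02 to 0.06. Only 2 of 5 correlated best with their own number, so the numbers were not taken as pairs. With the replicate block, 3 members (Cthrc1, Cilp, Thbs4) were called between the antibodies, and Thbs2 was called higher with IgG than in sham (log2 0.33), which made 10 members. Under the replicate block exon use gave 301 exons for IgG against sham, and 1, 5 and 2 member exons in IgG against sham, FG-3149 against sham and FG-3149 against IgG. Depth limits Cthrc1, Comp, Spp1, Tnc and Thbs4 in sham, where libraries held 49 reads or fewer.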
